A study of Mus musculus with 44 samples.

Results

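Mouse CD4 T cells lacking the microRNA miR-150 (genotype miR-150 KO in the labels, KO here) were set against wild-type cells (WT) after 3 days of culture under conditions that favour regulatory T (Treg) cells. The comparison takes the 5 libraries titled Treg KO, 1 of them typed K05, and the 5 titled Treg WT, which are 10 of the 44 libraries of the series. All 10 came from mice of the C57BL/6NTac strain. Naive CD4 cells were sorted from spleen and plated at 150000 cells per well on plates coated with anti-CD3, with soluble anti-CD28, and the medium held TGF-b1 and anti-IFN-g. The remaining libraries are cells of a further genotype, miR-150 KI, in the same medium, and cells of all 3 genotypes in Th0 medium (anti-CD3 and anti-CD28 alone) or Th1 medium (with IL-12 and anti-IL4). The labels name neither the age or sex of the mice nor how the KO and KI alleles were made. They also do not say whether the libraries of a group came from separate mice. The p-values and standard errors (SE) use a spread within groups pooled over all 44 libraries, not that of the 10 compared here alone. That spread may in part be technical.

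MicroRNAs are short RNAs that guide Argonaute proteins to matching stretches of messenger RNAs, which are then less stable and less translated. miR-150 is abundant in resting lymphocytes and falls when T cells are activated, and its best-known target is Myb, a transcription factor of lymphoid progenitors and dividing cells. TGF-beta signalling in activated naive CD4 cells turns on Foxp3, the transcription factor that defines Treg cells. Interferon-gamma opposes that fate, which is why it is neutralised in such cultures. It also induces genes for guanylate-binding proteins and for the loading of MHC class I.

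Each of the 10 libraries held between 60815821 and 105344353 counts. The precursor gene Mir150 (chromosome 7, positions 45121757 to 45121821 on the plus strand, GRCm38) had 0 counts in the 5 Treg KO libraries, against 2 counts in the 5 Treg WT libraries, and over all cultures 0 counts in KO and 7 in KI, against 6 in WT. Polyadenylated libraries hold few reads of so short a precursor, and these counts are too few to check the genotype labels. No pair of libraries within a group was a copy of the other: the lowest median chi-square per gene over 20 pairs was 5.62, where copies give 0.455.

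Libraries of a group differed strongly in lineage genes. The part of these differences in the results that follow was not tested, apart from fits that left out libraries or used the Cd8a level. Foxp3 had 419, 77.4, 376, 411 and 431 CPM (counts scaled to the size of the library) in KO libraries 1 to 5, against 534, 519, 159, 47.7 and 596 CPM in WT libraries 1 to 5. The library KO 2 and the libraries WT 3 and WT 4 were thus low in a gene that defines the intended cell. The same libraries were the high ones for Ifng, the interferon-gamma gene, with 5.25, 157, 1.74, 8.88 and 4.52 CPM in KO, against 0.886, 0.782, 78.7, 846 and 0.623 CPM in WT. Tbx21, the Th1 transcription factor, had 12.6, 47.3, 4.06, 11.7 and 9.72 CPM in KO, against 3.3, 1.06, 38.4, 62.7 and 0.6 CPM in WT. Cd8a, which marks the CD8 lineage that a CD4 sort should leave out, had 5.67, 73.1, 13.1, 13.2 and 15.3 CPM in KO, against 17.5, 4.16, 23.9, 443 and 4.9 CPM in WT, so KO 2 and WT 4 stood above the rest of their groups. The 10 CD8 T and NK cell markers summed to between 59.9 and 309 CPM in KO libraries, against 22.5 to 1022 CPM in WT libraries. Cd4 itself stayed between 440 and 624.9 CPM in KO, against 289 to 636 CPM in WT. In bulk RNA, fewer cells of a type and less RNA per cell cannot be told apart.

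The first principal component of the 500 most variable genes held 51% of the variance among the 10 libraries and did not separate the genotypes. KO 2, WT 3 and WT 4 lay at one end, at 52.2, 35.1 and 49.6, and WT 1, WT 2 and WT 5 at the other, at -23.7, -54.5 and -54, with the remaining KO libraries between -6.57 and 7.8. The WT group therefore spanned nearly the whole axis. Sex-linked transcripts also differed within groups: Xist was high in KO 1, 2 and 3 and in WT 3 and 5, and the Y-linked Ddx3y in KO 4 and 5 and in WT 1, 2 and 4. The library WT 4 held 7545 counts of Xist beside 6374 of Ddx3y, whereas the other libraries held at most 42 counts of one or 0 of the other. The Xist-high libraries held 226913 to 337206 counts of Xist, and the other Ddx3y-high libraries 7371 to 9811 of Ddx3y. WT 4 was thus near the latter for Ddx3y and far below the former for Xist.

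**Figure D1:**
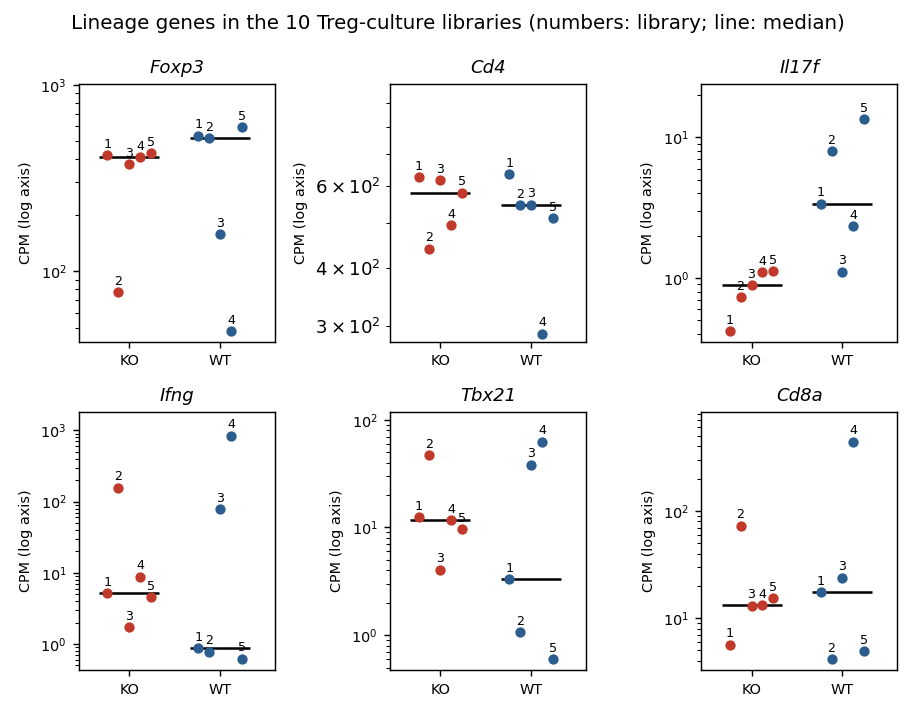
Level in CPM on a log axis (y) of 6 lineage genes in the 5 KO (red, left) and 5 WT (blue, right) Treg-culture libraries. Points are libraries with their numbers and lines are group medians. Foxp3 is lowest in WT 4, at 47.7 CPM, and in KO 2, at 77.4 CPM, and those 2 libraries are the highest of their groups for Ifng, Tbx21 and Cd8a.

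In KO cells 37 genes differed from WT at an adjusted p below 0.05, which is 0.169% of the 21873 genes tested. Of these, 23 were higher in KO (0.105%) and 14 lower (0.064%). The higher genes included guanylate-binding proteins and the peptide transporter Tap1, the transcription factor Myb and the hypoxia-induced kinase Pdk1, with folds on the log2 scale between 0.49 and 2.41. The lower genes included the phosphate carrier Slc20a1, the kinase Src and the activin receptor Acvr2a, with log2 fold changes between -4.98 and -0.56. Over all genes tested the median log2 fold change was -0.006 and 48.8% lay above 0. All 5 KO libraries lay above all 5 WT libraries in 10 of the 23 higher genes, and all 5 lay below in 5 of the 14 lower genes, where 0.677% of all genes tested had KO entirely above WT and 0.443% had KO entirely below. The called genes were chosen by their values in these libraries, so this separation is no independent support for the calls. Without adjustment, 2200 genes (10.1%) had p below 0.05.

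These calls rest on a spread estimated over all 44 libraries of the series. A fit to the 10 Treg KO and WT libraries alone, or to the 15 Treg libraries, called 0 genes by edgeR, with 1297 and 1632 genes at an unadjusted p below 0.05. Single libraries also moved the count. Without KO 1, 2, 3, 4 or 5 it was 11, 140, 15, 10 and 10, and without WT 1, 2, 3, 4 or 5 it was 45, 15, 195, 96 and 2. The 2 genes still called without WT 5 were Myl4 and Nol4l. Without KO 2 and WT 4, the Cd8a-high libraries, 110 genes were called, 40 higher and 70 lower, and 36 of the 37 were among them. Of the 37, the 33 named genes kept their direction in each of these fits.

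**Figure D2:**
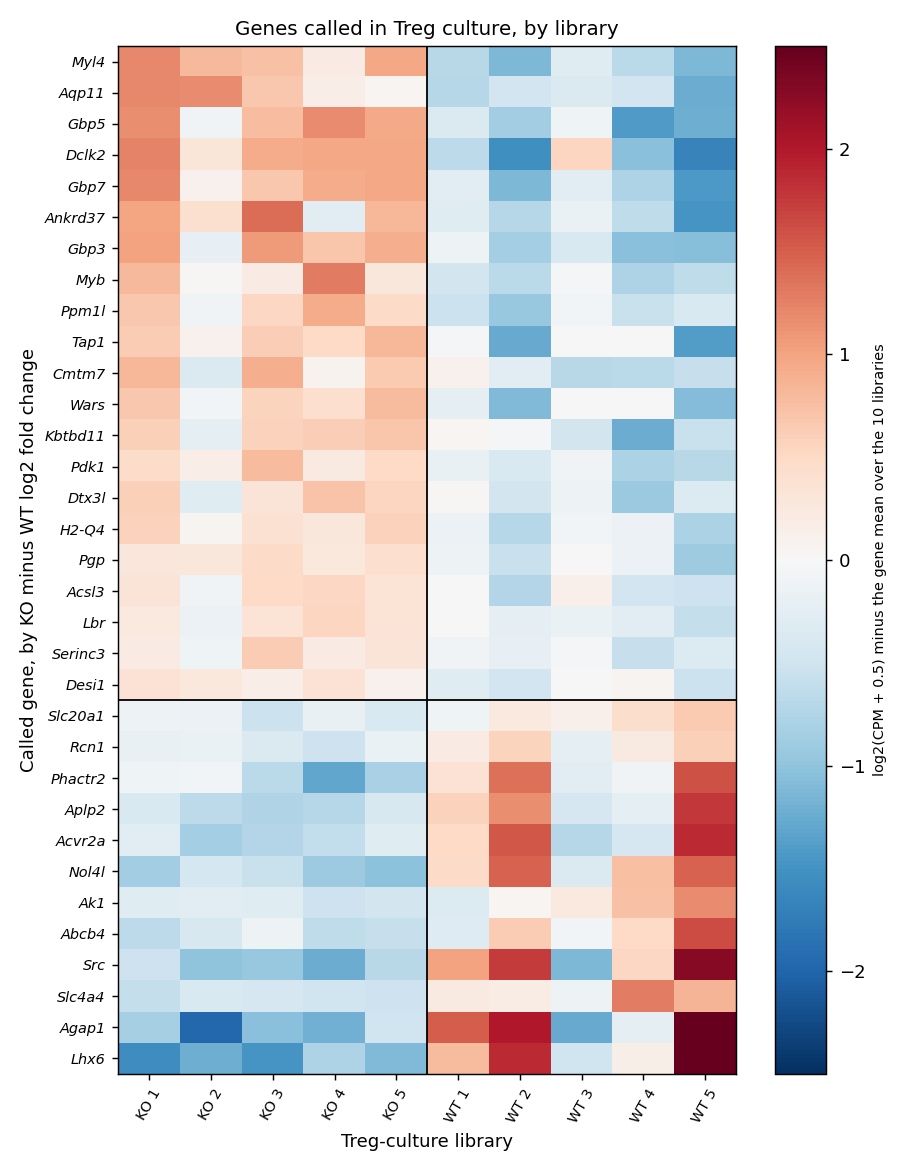
Colour gives log2(CPM + 0.5) minus the mean of the gene over the 10 libraries, for the 33 named genes called in KO against WT, in KO libraries 1 to 5 (left of the line) and WT libraries 1 to 5 (right). Rows run by log2 fold change, with the 21 higher genes above the horizontal line and the 12 lower ones below it; WT 5 is darkest in most of the lower genes and KO 2 is palest among KO in most of the higher ones.

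Single libraries stood out in both directions. Among the 14 lower genes, WT 5 was the highest WT library in 13, and WT 3 lay within the KO range in 7. Among the 23 higher genes, KO 2 was the lowest KO library in 18 and lay within the WT range in 12. WT 5 was the lowest WT library in 12 of these 23, and without WT 5 only 1 higher gene was called.

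Guanylate-binding proteins are interferon-induced GTPases that attack the membranes of pathogens inside cells. Gbp3, Gbp5 and Gbp7, neighbours on chromosome 3, were higher in KO. Gbp5 had 375, 157, 288, 378 and 325 CPM in KO libraries 1 to 5, against 129.9, 90.8, 155, 62.4 and 71.7 CPM in WT libraries 1 to 5. The groups did not overlap, although KO 2 lay barely above WT 3. Its means were 304 ± 90.6 CPM in KO and 101.96 ± 39.4 CPM in WT (SD, n = 5 each), and the log2 fold change was 1.58 ± 0.31 (SE, adjusted p = 0.0158). Gbp7 had 140.8, 66.4, 98, 117.4 and 120.5 CPM in KO, against 50.3, 27.8, 50.5, 35.8 and 22.2 CPM in WT, again with no overlap (1.54 ± 0.32, adjusted p = 0.0278). Gbp3 averaged 71.2 ± 20.9 CPM in KO and 26.5 ± 8.21 CPM in WT (1.43 ± 0.25, adjusted p = 0.00553), and here KO 2, at 36.3 CPM, lay below WT 1, at 38.1 CPM. Leaving out 1 library at a time, Gbp3 kept its call in 9 of 10 fits, Gbp5 in 5 and Gbp7 in 4, with log2 fold changes of 1.31 to 1.59, 1.42 to 1.76 and 1.39 to 1.67. Members of this family resemble each other in sequence, and the rule for counting reads that map to several of them is not known here.

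The promoters of these 3 genes are shown because interferons act on such genes through short elements near the start site. Each is a window of 300 bases on the plus strand of chromosome 3 in GRCm38.p6, from 250 bases before to 50 after the start given by RefSeq. Capitals mark matches to GAAANNGAAA, the core of the element bound by interferon-activated factors, here read on the other strand as TTTCNNTTTC, or to TTCNNNGAA, the core of the gamma-activated element, and matches may overlap.
Gbp3 (chr3:142559794-142560093): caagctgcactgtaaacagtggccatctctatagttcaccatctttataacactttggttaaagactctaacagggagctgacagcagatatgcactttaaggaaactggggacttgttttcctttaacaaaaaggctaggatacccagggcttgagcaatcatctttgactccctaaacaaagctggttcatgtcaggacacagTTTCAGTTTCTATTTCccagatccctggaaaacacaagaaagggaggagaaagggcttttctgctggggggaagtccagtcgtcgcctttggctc
Gbp5 (chr3:142496684-142496983): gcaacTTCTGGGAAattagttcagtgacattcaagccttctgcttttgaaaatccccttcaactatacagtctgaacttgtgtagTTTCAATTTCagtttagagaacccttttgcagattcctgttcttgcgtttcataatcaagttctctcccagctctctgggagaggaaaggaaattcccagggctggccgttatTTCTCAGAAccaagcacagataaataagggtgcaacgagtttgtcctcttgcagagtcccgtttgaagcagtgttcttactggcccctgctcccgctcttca
Gbp7 (chr3:142530086-142530385): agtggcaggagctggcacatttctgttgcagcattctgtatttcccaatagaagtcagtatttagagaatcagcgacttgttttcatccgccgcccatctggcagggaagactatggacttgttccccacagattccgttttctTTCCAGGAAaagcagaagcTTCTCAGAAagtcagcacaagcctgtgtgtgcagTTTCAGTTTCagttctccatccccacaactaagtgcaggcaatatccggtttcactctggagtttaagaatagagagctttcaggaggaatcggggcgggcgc
The Gbp3 window held 2 overlapping matches to the first motif, the Gbp5 window 1 match to it and 2 to the second, and the Gbp7 window likewise 1 and 2. A second RefSeq start of Gbp3, downstream of that one, had neither motif in its window, and neither did the Tap1 window. Over all 32851 promoter windows, 3.44% held the first motif and 8.3% the second, and counted by gene, 3.87% and 8.63% of the 12845 tested genes with a window did. Of the 18 higher genes with a window, 3 held the first, namely these, and 2 the second; of the 11 lower genes with a window, 0 held either.

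The wider interferon lists leaned the same way but passed the test in few members. All 18 tested members of the list of guanylate-binding proteins and immunity-related GTPases had a log2 fold change above 0, with a median of 0.91, against -0.006 over all genes; 3 were called higher and 0 lower. Gbp2 averaged 672 ± 242 CPM in KO and 202 ± 103.1 CPM in WT (1.74 ± 0.42) and missed the threshold at an adjusted p of 0.07. Of 41 antiviral interferon-stimulated genes, 40 lay above 0, with a median of 0.91, and 1 was called, Dtx3l, the E3 ubiquitin ligase that pairs with Parp9. Dtx3l averaged 377 ± 92.1 CPM in KO and 225 ± 53.5 CPM in WT (0.74 ± 0.17, adjusted p = 0.0466), and Parp9 averaged 212 ± 32.6 CPM in KO and 126.98 ± 38.8 CPM in WT (adjusted p = 0.0893). Zbp1, a sensor of Z-form nucleic acids, averaged 117.02 ± 41.7 CPM in KO and 53.5 ± 22.4 CPM in WT (adjusted p = 0.147), and Trim25, a ubiquitin ligase of the RIG-I pathway, averaged 197 ± 36.9 CPM in KO and 122.3 ± 41.6 CPM in WT (adjusted p = 0.171).

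Within the antiviral list the KO and WT libraries overlapped. Its summed level was 5529, 2901, 5143, 5182 and 5962 CPM in KO libraries 1 to 5, against 4217, 2801, 3718, 2075 and 2561 CPM in WT libraries 1 to 5, so KO 2 lay among the WT libraries. Wars, the tryptophan tRNA ligase induced by interferon-gamma, averaged 179 ± 37.1 CPM in KO and 95.9 ± 34.6 CPM in WT (0.90 ± 0.18, adjusted p = 0.0245).

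Of the 21 genes of interferon ligands, receptors and signalling, 0 were called, 16 lay above 0 and the median was 0.24. Ifngr1, which encodes the binding chain of the interferon-gamma receptor, had 277, 187, 256, 194 and 250 CPM in KO, against 136.5, 115.9, 132.5, 162 and 104.6 CPM in WT. The groups did not overlap, and the adjusted p was 0.204 (0.84 ± 0.26). Nlrc5, the transactivator of MHC class I genes, averaged 396 ± 94.6 CPM in KO and 218 ± 92.8 CPM in WT (adjusted p = 0.129). Irf1 averaged 293 ± 55.5 CPM in KO and 165 ± 86.4 CPM in WT (adjusted p = 0.229). The list of guanylate-binding proteins and immunity-related GTPases summed to 5295, 3244, 4482, 4570 and 4751 CPM in KO libraries 1 to 5, against 2556, 1578, 3839, 1852 and 1460 CPM in WT libraries 1 to 5. Of the libraries high in Ifng, KO 2 was thus the lowest of the KO group, WT 3 the highest of the WT group and WT 4 in the middle of it.

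In the presentation of peptides by MHC class I, 2 of 21 genes were called higher and 0 lower, with 20 above 0 and a median of 0.56. Tap1, a subunit of the pump that carries peptides into the endoplasmic reticulum, had 494, 340, 489, 449 and 562 CPM in KO, against 310, 132.9, 316, 317 and 120.3 CPM in WT. KO was above WT in every library, and WT 2 and WT 5 were the low ones (0.96 ± 0.21, adjusted p = 0.0296). H2-Q4, a non-classical MHC class I gene, averaged 186 ± 27 CPM in KO and 111.9 ± 25.8 CPM in WT, with KO entirely above WT (0.74 ± 0.17, adjusted p = 0.0462); it has near-identical neighbours, so its count is uncertain. Psmb9, an immunoproteasome subunit, averaged 187 ± 35.2 CPM in KO and 110.5 ± 48.2 CPM in WT (adjusted p = 0.0991), and the proteasome activator Psme1 averaged 262 ± 29.4 CPM in KO and 200 ± 43.8 CPM in WT (adjusted p = 0.111).

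**Figure D3:**
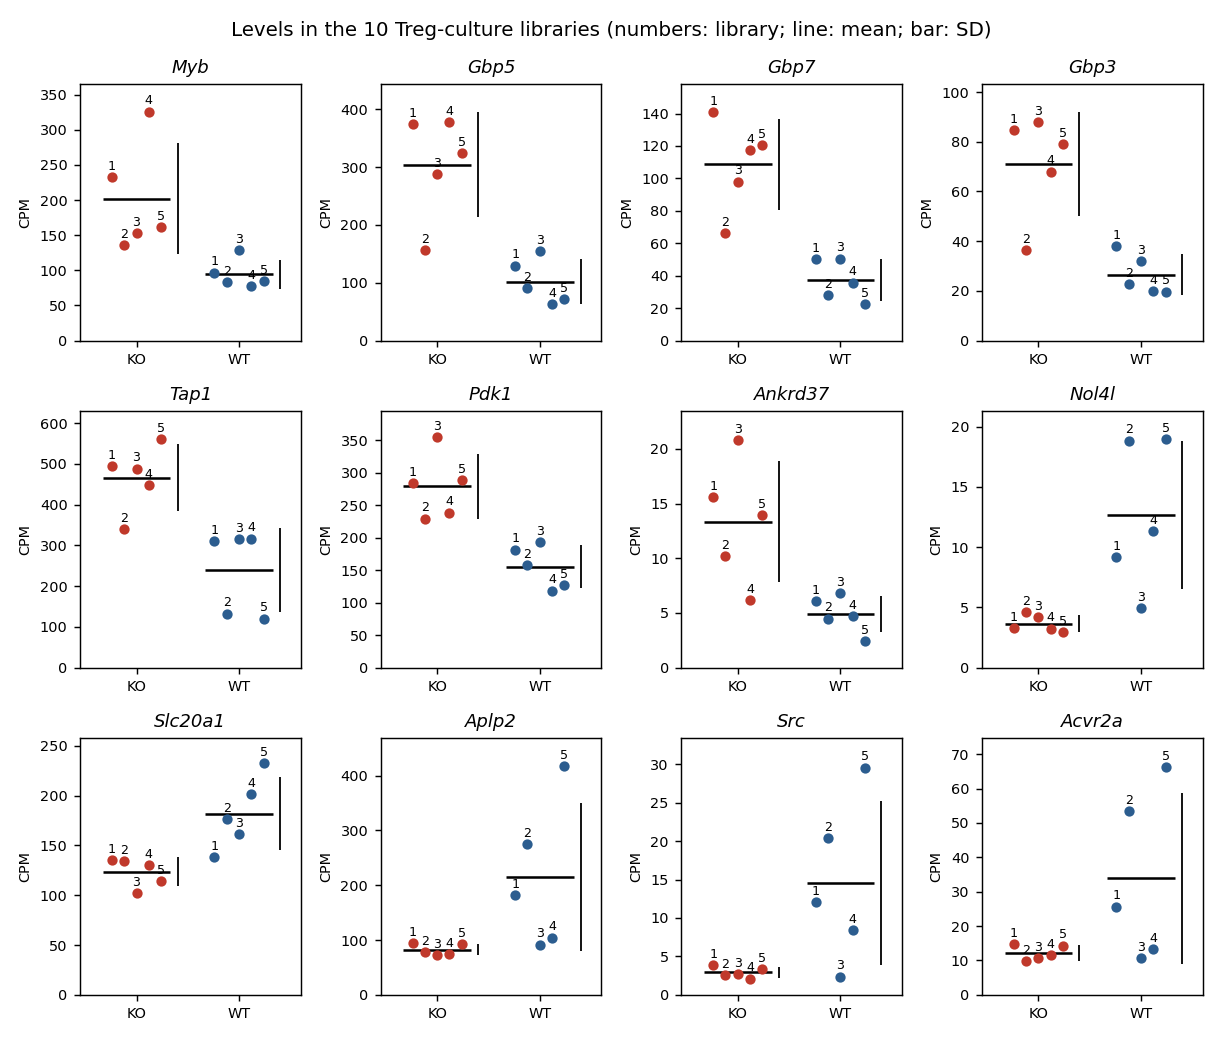
CPM (y) of 12 genes called in KO against WT in the 5 KO (red, left) and 5 WT (blue, right) Treg-culture libraries. Points carry library numbers, lines are means and bars SDs. Myb, Gbp5, Gbp7, Tap1 and Pdk1 lie higher in every KO library than in any WT library, Nol4l and Slc20a1 lie lower in every KO library, and the WT points of Aplp2, Src and Acvr2a spread from the KO range up to their highest value in WT 5.

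Myb (chromosome 10, positions 21124935 to 21160984 on the minus strand, GRCm38) was the only called member of 19 genes reported as miR-150 targets. It had 233, 136.04, 153, 326 and 161 CPM in KO libraries 1 to 5, against 96.7, 83, 128.7, 77.2 and 85 CPM in WT libraries 1 to 5. The groups did not overlap, with WT 3 closest to KO 2. Its mean was 202 ± 78.6 CPM in KO and 94.2 ± 20.6 CPM in WT, a log2 fold change of 1.10 ± 0.24 (adjusted p = 0.0286). Leaving out single libraries gave folds between 0.84, without KO 4, and 1.22, and kept the call in 3 of 10 fits. Of its relatives, Mybl2 averaged 65.9 ± 9.82 CPM in KO and 51.9 ± 15.7 CPM in WT (adjusted p = 0.542).

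Of the 19 reported targets, Myb included, 10 lay above 0 with a median of 0.03. Cxcr4, a chemokine receptor, had 43.3, 36.6, 49.2, 32.6 and 34.4 CPM in KO, against 17.2, 19.9, 11.4, 9.78 and 27.6 CPM in WT, with no overlap but a wide error (1.19 ± 0.51, adjusted p = 0.406). Cbl, a ubiquitin ligase that dampens T cell receptor signals, averaged 507 ± 67.3 CPM in KO and 423 ± 40.7 CPM in WT (0.26 ± 0.10, adjusted p = 0.346). The glucose transporter Slc2a1 averaged 107.9 ± 18.5 CPM in KO and 62.1 ± 45.7 CPM in WT (adjusted p = 0.411). RNA levels do not show changes in translation, and lists of reported targets come from other cells.

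Pdk1 (chromosome 2, positions 71873224 to 71903858 on the plus strand, GRCm38) encodes a kinase that shuts off pyruvate dehydrogenase and so keeps pyruvate out of the citrate cycle. It had 284, 230, 354, 239 and 288 CPM in KO, against 182, 158, 193, 118.8 and 127.1 CPM in WT. KO lay above WT throughout, at means of 279 ± 49.7 CPM in KO and 156 ± 32.6 CPM in WT (0.84 ± 0.15, adjusted p = 0.00553), and the call held in 9 of 10 fits without 1 library. Ankrd37, an ankyrin-repeat protein induced in low oxygen, had 15.6, 10.2, 20.8, 6.16 and 14 CPM in KO, against 6.08, 4.49, 6.79, 4.75 and 2.42 CPM in WT (1.44 ± 0.25, adjusted p = 0.00553); only KO 4 reached into the WT range.

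These 2 were the called members among 19 genes of the hypoxia response, of which 18 lay above 0 with a median of 0.56. P4ha1, a collagen prolyl hydroxylase, averaged 129.3 ± 25.6 CPM in KO and 85 ± 22.1 CPM in WT (adjusted p = 0.109). The oxygen sensor Egln1 averaged 99.9 ± 14.2 CPM in KO and 63.4 ± 15.2 CPM in WT (adjusted p = 0.139). In glycolysis all 22 gene rows lay above 0, with a median of 0.54, and 0 were called. Its summed level was 16500, 21180, 17740, 11640 and 16500 CPM in KO libraries 1 to 5, against 9879, 5946, 16700, 20660 and 4924 CPM in WT libraries 1 to 5. WT 3 and WT 4 were as high as the KO libraries, and WT 2 and WT 5 were the low ones. Gpi1, which converts glucose-6-phosphate, averaged 807 ± 103.6 CPM in KO and 522 ± 177 CPM in WT (0.63 ± 0.20, adjusted p = 0.217), and Pfkl averaged 177 ± 24.4 CPM in KO and 104.2 ± 64 CPM in WT (adjusted p = 0.295). Pkm averaged 2205 ± 412 CPM in KO and 1364 ± 758 CPM in WT (adjusted p = 0.339), and Eno3 averaged 181 ± 54.5 CPM in KO and 108.04 ± 55.9 CPM in WT (adjusted p = 0.343).

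Genes of pyruvate oxidation and the citrate cycle did not share this lean, with 12 of 20 above 0, a median of 0.04 and Pdk1 the 1 call. Mpc2, a subunit of the mitochondrial pyruvate carrier, had 14.3, 14.3, 13.9, 11.6 and 13.7 CPM in KO, against 18.4, 21.6, 18.3, 16.1 and 21.5 CPM in WT. Every KO library was below every WT library, with an adjusted p of 0.136 (-0.50 ± 0.14). Pgp, a phosphatase that clears by-products of glycolysis, averaged 45.5 ± 2.94 CPM in KO and 28.5 ± 6.76 CPM in WT with no overlap (0.67 ± 0.14, adjusted p = 0.0286).

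Lipid genes gave single calls outside the synthesis lists. Acsl3, which activates long-chain fatty acids, averaged 80.5 ± 12.8 CPM in KO and 52.2 ± 13.5 CPM in WT (0.62 ± 0.13, adjusted p = 0.0278). Lbr, the lamin B receptor and a sterol reductase, averaged 422 ± 69.3 CPM in KO and 292 ± 41.6 CPM in WT (0.53 ± 0.11, adjusted p = 0.0278). All 25 genes of cholesterol synthesis lay above 0, with a median of 0.40, and 0 were called; the sum was between 4020 and 4819 CPM in KO, against 3464, 2088, 4751, 4597 and 1879 CPM in WT libraries 1 to 5, so again WT 2 and WT 5 were low. Stard4, a sterol carrier, averaged 282 ± 24.1 CPM in KO and 206 ± 62.1 CPM in WT (adjusted p = 0.111), and Dhcr7 averaged 97.6 ± 5.01 CPM in KO and 67 ± 27.2 CPM in WT (adjusted p = 0.298). Fatty acid synthesis had 12 of 13 genes above 0, a median of 0.27 and 0 calls.

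**Figure D4:**
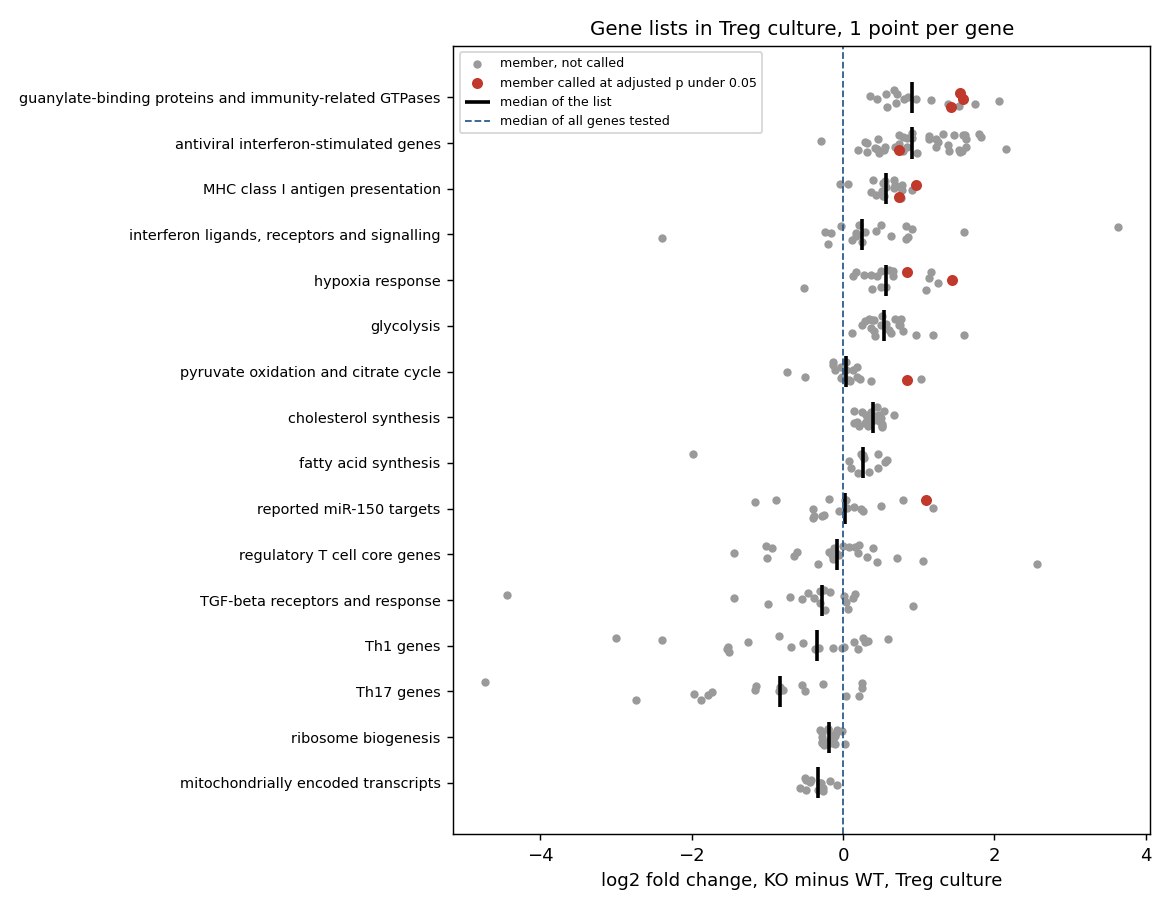
Each point is the log2 fold change (x, KO minus WT, Treg culture) of 1 member of the 16 gene lists named on the y axis. Red points were called, black lines are list medians and the dashed line is the median of all genes tested, -0.006. Lists of interferon-induced genes, hypoxia, glycolysis and cholesterol synthesis lie right of it with few red points, and Th17 genes lie left of it with none.

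The remaining higher genes have varied roles. Myl4, an embryonic and atrial myosin light chain, was low but separated completely, at 3.01, 2.2, 2.04, 1.27 and 2.48 CPM in KO, against 0.452, 0.203, 0.736, 0.46 and 0.204 CPM in WT. It had the smallest adjusted p of the comparison, 4.78e-04 (2.41 ± 0.34), and was called in all 10 fits without 1 library. Aqp11, a water channel of the endoplasmic reticulum, averaged 2.22 ± 0.992 CPM in KO and 0.561 ± 0.23 CPM in WT with no overlap (1.98 ± 0.36, adjusted p = 0.00726). Dclk2, a doublecortin-like kinase, averaged 55.1 ± 12.1 CPM in KO and 18.6 ± 13.8 CPM in WT (1.57 ± 0.28), and WT 3, at 42.3 CPM, lay among the KO libraries. Ppm1l, a protein phosphatase, averaged 25.1 ± 6.22 CPM in KO and 12.2 ± 2.81 CPM in WT (1.04 ± 0.19). Desi1, which removes SUMO from proteins, averaged 73.4 ± 5.81 CPM in KO and 52.2 ± 9.97 CPM in WT with no overlap (0.49 ± 0.10, adjusted p = 0.0278). Cmtm7, Kbtbd11 and Serinc3 had log2 fold changes of 0.90, 0.86 and 0.51 with overlapping groups. The last 2 of the 23 were predicted or RIKEN-named genes.

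Among the lower genes, Nol4l (chromosome 2, positions 153407462 to 153529971 on the minus strand, GRCm38), a gene of poorly known function, had the smallest p. It had 3.3, 4.62, 4.22, 3.24 and 2.96 CPM in KO, against 9.19, 18.9, 4.93, 11.3 and 18.9 CPM in WT. KO lay below WT throughout, with WT 3 just above KO 2, and the call held in all 10 fits without 1 library (-1.78 ± 0.27, adjusted p = 0.00108). Slc20a1 (chromosome 2, positions 129198764 to 129211616 on the plus strand), a sodium-phosphate carrier of the plasma membrane, had 135.6, 134.6, 102.1, 130.4 and 114.3 CPM in KO, against 137.9, 176, 162, 202 and 232 CPM in WT. The groups were separated by the small step between KO 1 and WT 1 (-0.56 ± 0.11, adjusted p = 0.0158). The transcript 9830144P21Rik, on the other strand between 129205958 and 129230579, overlaps it and was also called lower. Whether counting used strand is not stated in the sources, so the reads of this pair cannot be told apart with certainty. The RIKEN-named gene 2610301B20Rik was called lower too, with KO entirely below WT (-0.65 ± 0.13, adjusted p = 0.0245).

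Several lower genes were uneven among the WT libraries. Aplp2, a relative of the amyloid precursor protein, had 94.1, 77.5, 72.4, 74.9 and 93 CPM in KO, against 182, 276, 91.8, 104.6 and 417 CPM in WT (-1.38 ± 0.25, adjusted p = 0.00726). Acvr2a, a type II receptor for activins in the TGF-beta superfamily, had 14.7, 9.73, 10.6, 11.6 and 14.3 CPM in KO, against 25.6, 53.4, 10.7, 13.2 and 66.3 CPM in WT (-1.47 ± 0.31, adjusted p = 0.0278). Src, the founding member of the Src kinases, had 3.83, 2.6, 2.73, 2.12 and 3.36 CPM in KO, against 12, 20.4, 2.37, 8.46 and 29.6 CPM in WT (-2.31 ± 0.50, adjusted p = 0.0299). In each of these the WT libraries 1, 2 and 5 were above all KO libraries, while WT 3 was within the KO range or below it for Aplp2, Acvr2a and Src. The call of Src held in 4 of 10 fits without 1 library. Phactr2, a regulator of actin and of protein phosphatase 1, averaged 32.8 ± 11.3 CPM in KO and 82.1 ± 47.9 CPM in WT (-1.32 ± 0.30). Agap1, a GTPase-activating protein of Arf traffic, averaged 1.35 ± 0.626 CPM in KO and 14.2 ± 16.7 CPM in WT (-3.40 ± 0.67), with 42.3 CPM in WT 5.

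Low transcripts with large folds rest on few counts in KO. Lhx6, a homeobox gene of interneurons, had 0.0452, 0.185, 0.0782, 0.436 and 0.242 CPM in KO libraries 1 to 5, against 2.25, 5.35, 0.631, 1.28 and 21.8 CPM in WT libraries 1 to 5 (-4.98 ± 1.02, adjusted p = 0.0245). The groups did not overlap; KO held 92 counts in all, from 4 to 36 per library, and 1923 of the 2695 WT counts were in WT 5. The bicarbonate carrier Slc4a4 had 73 counts in KO and 396 in WT, with no overlap in CPM (-2.49 ± 0.53). Ak1, an adenylate kinase, averaged 0.23 ± 0.055 CPM in KO and 0.804 ± 0.553 CPM in WT (-1.80 ± 0.35), and the phospholipid exporter Abcb4 averaged 0.313 ± 0.132 CPM in KO and 1.25 ± 1.03 CPM in WT (-2.00 ± 0.42). Rcn1, a calcium-binding protein of the endoplasmic reticulum, was better covered, at 43 ± 4.48 CPM in KO and 63.9 ± 13.9 CPM in WT (-0.57 ± 0.12, adjusted p = 0.0296), with WT 3, at 44 CPM, inside the KO range.

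Of 24 core genes of Treg cells, 0 were called, 11 lay above 0 and the median was -0.08. Foxp3 averaged 343 ± 150 CPM in KO and 371 ± 249 CPM in WT (-0.11 ± 0.51, adjusted p = 0.979), an error that leaves room for changes of either sign. Il2ra, the high-affinity chain of the IL-2 receptor, averaged 1763 ± 336 CPM in KO and 1762 ± 192 CPM in WT. Ikzf2, which encodes Helios, averaged 182 ± 69.6 CPM in KO and 87.5 ± 36.2 CPM in WT (1.05 ± 0.39, adjusted p = 0.311). Lrrc32, the cell-surface anchor of latent TGF-beta, averaged 34 ± 10.4 CPM in KO and 68.4 ± 36.8 CPM in WT (adjusted p = 0.43), and the ectonucleotidase Nt5e averaged 195 ± 61.5 CPM in KO and 394 ± 304 CPM in WT (adjusted p = 0.515). WT 1, 2 and 5 were above all KO libraries for both Lrrc32 and Nt5e.

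Of 18 TGF-beta receptors and response genes, 0 were called, 6 lay above 0 and the median was -0.27. KI against the same WT libraries also had 6 above 0, with a median of -0.115. Itgae, the integrin chain CD103 induced by TGF-beta, had 43.8, 18, 34, 7.93 and 17.1 CPM in KO, against 32.8, 101.5, 11.2, 40.4 and 143.5 CPM in WT (-1.45 ± 0.51, adjusted p = 0.285). Tgfbr1, the type I receptor, averaged 183 ± 31.4 CPM in KO and 363 ± 266 CPM in WT (adjusted p = 0.286), with 549 CPM in WT 2 and 722 CPM in WT 5. In both genes WT 2 and WT 5 were the high libraries.

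Th17 genes, which TGF-beta supports together with IL-6, had a median of -0.83, with 4 of 18 above 0 and 0 called. KI against the same WT libraries leaned the same way, with 3 above 0 and a median of -0.528. KO against WT had 8 above 0 in Th0 medium (median -0.037) and 13 in Th1 medium (median 0.089). Il17f had 0.419, 0.729, 0.89, 1.1 and 1.12 CPM in KO, against 3.38, 7.98, 1.11, 2.34 and 13.6 CPM in WT (-2.73 ± 0.76, adjusted p = 0.147). Only WT 3 and KO 5 kept these groups from separating. Maf averaged 21.9 ± 7.96 CPM in KO and 72.7 ± 58.6 CPM in WT (adjusted p = 0.299), and Rora averaged 25.9 ± 8.01 CPM in KO and 45.9 ± 20.5 CPM in WT (adjusted p = 0.316).

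Th1 genes had a median of -0.34, with 7 of 20 above 0 and 0 called. Their sum was 851, 2866, 687, 924 and 770 CPM in KO libraries 1 to 5, against 592, 532, 1934, 6817 and 507 CPM in WT libraries 1 to 5, so 1 KO library and 2 WT libraries held most of this expression. KI against WT in Treg medium had 3 of the 20 Th1 genes above 0, with a median of -0.532. On the log2 scale the change in KO was -2.38 ± 1.39 for Ifng and -0.31 ± 0.76 for Tbx21. Both changed sign without WT 4, to 0.77 and 0.61. Lta averaged 89.2 ± 32.1 CPM in KO and 160 ± 53.6 CPM in WT (adjusted p = 0.233), and Tnf averaged 18.9 ± 2.95 CPM in KO and 27.4 ± 5.47 CPM in WT (adjusted p = 0.314). Gata3, the Th2 transcription factor, averaged 43.4 ± 13.5 CPM in KO and 34.9 ± 6.01 CPM in WT (0.31 ± 0.38, adjusted p = 0.858).

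The 13 mitochondrially encoded transcripts all lay below 0, with a median of -0.33 and 0 calls. This lean was not particular to KO in Treg medium. KO against WT had 0 of them above 0 in Th0 medium (median -0.368) and 1 in Th1 medium (median -0.225). KI against WT in Treg medium had 0 above 0 (median -0.255). Their sum was between 27330 and 37680 CPM in KO, against 24150 to 50680 CPM in WT, with WT 2 and WT 5 the highest. Of these, mt-Nd6 averaged 486 ± 46.3 CPM in KO and 723 ± 323 CPM in WT (-0.57 ± 0.19, adjusted p = 0.254). Among genes served by MYC, mTORC1 and nutrient uptake, Slc20a1 was the 1 call in 24, with a median of 0.03. Of 21 ribosome biogenesis genes, 1 lay above 0 and 0 were called, with a median of -0.19. Here too the other comparisons leaned the same way. KO against WT had 2 above 0 in Th0 medium and 0 in Th1 medium, and KI against WT in Treg medium had 1. P2ry1, a purinergic receptor, averaged 3.13 ± 0.898 CPM in KO and 11.7 ± 8.2 CPM in WT (-1.90 ± 0.50, adjusted p = 0.1).

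Markers of other cell types gave 0 calls. B cell and MHC class II markers had a median of -0.35 and summed to between 517 and 1057 CPM in KO, against 362 to 1051 CPM in WT. The 14 myeloid and dendritic markers had a median of -0.81 and summed to 18.6 to 47.4 CPM in KO, against 33.7 to 88.9 CPM in WT. Erythroid and platelet markers summed to at most 9.7 CPM in KO, against 9.58 CPM in WT. The part of these cells in the results above was not tested, apart from the fits that used the Cd8a level or left out libraries high in it.

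In the other cultures the genes called in Treg medium had smaller median fold changes between KO and WT, although they were chosen by their Treg values. In Th0 medium 0 genes were called by edgeR, with 1048 (4.79%) at an unadjusted p below 0.05 and 3 called by DESeq2; in Th1 medium 0 were called, with 2000 (9.14%) at an unadjusted p below 0.05 and 18 called by DESeq2. Of the 23 genes higher in Treg medium, 16 lay above 0 in Th0 medium, with a median of 0.07, and 14 in Th1 medium, with a median of 0.14. Of the 14 lower genes, 10 lay below 0 in Th0 medium, with a median of -0.10, and 8 in Th1 medium, with a median of -0.10. Same-numbered libraries of the 3 media may come from the same mouse, so these are not independent samples.

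A test of the difference itself, the KO effect in Treg medium minus that in another medium, called 0 genes against Th0 (1149, or 5.25%, at an unadjusted p below 0.05, and 20 called by DESeq2) and 0 against Th1 (1402, or 6.41%, and 33 by DESeq2). The nearest to the threshold were Gbp3 against Th0, at a difference of 1.84 ± 0.34 (adjusted p = 0.0923), and Nol4l against Th1, at -2.05 ± 0.38 (adjusted p = 0.0788). With the block of genotype by number Gbp3 passed the threshold against Th0 (adjusted p = 0.0498), as did Myl4 (adjusted p = 0.0498). Gbp3 also passed against Th0 without WT 1, KO 2 or WT 3, and Nol4l against Th1 without WT 3. Gbp3 averaged 34.7 ± 4.94 CPM in KO and 46.2 ± 13.7 CPM in WT in Th0 medium, and 45.8 ± 12.2 CPM in KO and 46.9 ± 5.11 CPM in WT in Th1 medium. Gbp5 averaged 176 ± 48.1 CPM in KO and 236 ± 126.97 CPM in WT in Th0 medium, and 277 ± 46.6 CPM in KO and 275 ± 71.9 CPM in WT in Th1 medium. The 18 guanylate-binding proteins and immunity-related GTPases had a median of -0.64 in Th0 medium, with 0 above 0. In Th1 medium their median was -0.77, with 2 above 0. KI cells in Treg medium, against the same WT libraries, had a median of 0.46 with 17 above 0. Antiviral genes instead had 31 of 41 above 0 in Th0 medium (median 0.164) and 31 in Th1 medium (median 0.173). MHC class I genes had 9 of 21 above 0 in Th0 medium (median -0.054) and 13 in Th1 medium (median 0.062). Of 19 hypoxia genes, 16 lay above 0 in Th0 medium (median 0.227) and 13 in Th1 medium (median 0.157). Myb averaged 66.5 ± 8.07 CPM in KO and 54.2 ± 14.5 CPM in WT in Th0 medium (0.29 ± 0.23), and 129.97 ± 13.1 CPM in KO and 81.6 ± 31.9 CPM in WT in Th1 medium (0.67 ± 0.23, adjusted p = 0.506). The difference of its KO effect was 0.81 ± 0.33 against Th0 (adjusted p = 0.89) and 0.43 ± 0.33 against Th1 (adjusted p = 0.92).

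**Figure D5:**
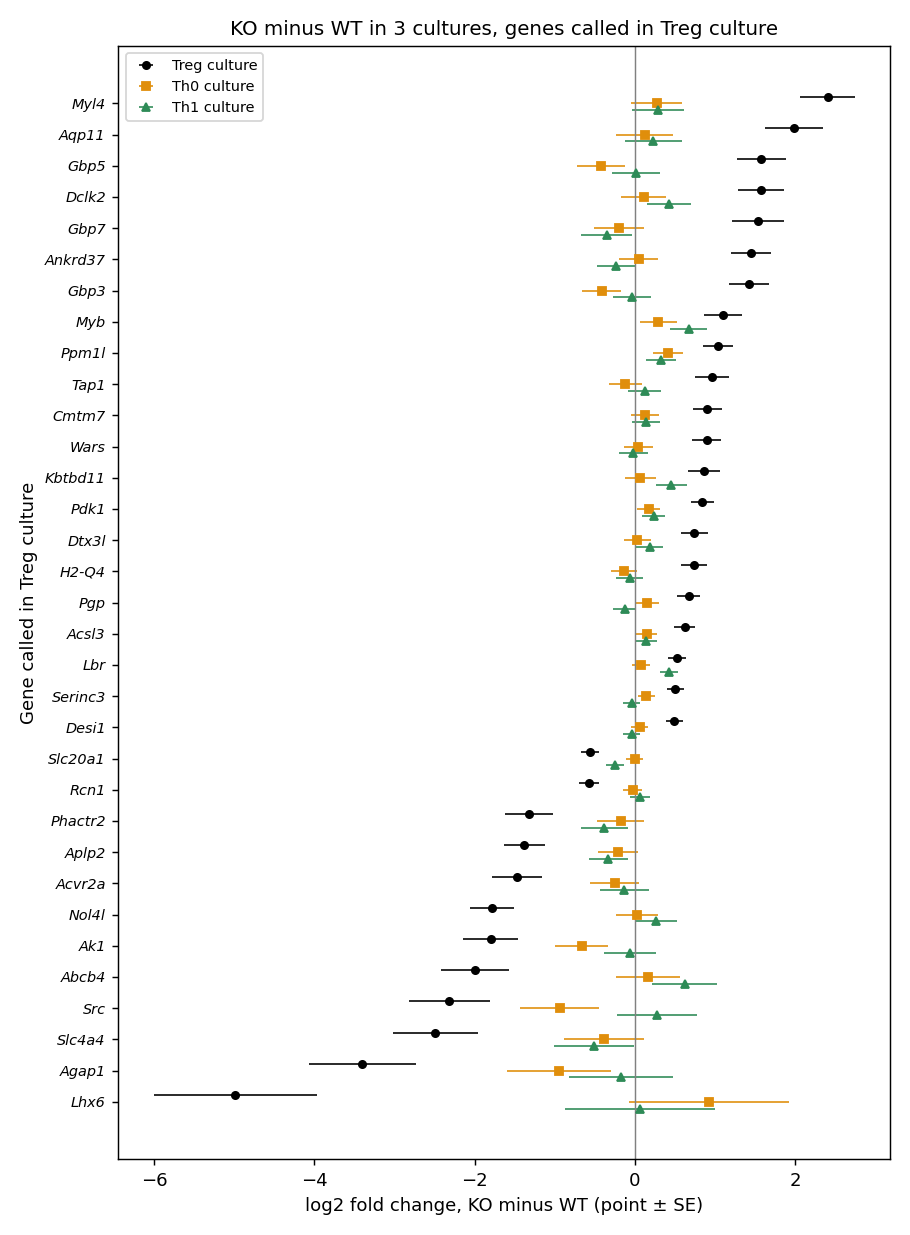
Log2 fold change, KO minus WT, with its SE (x) in Treg (black circles), Th0 (orange squares) and Th1 (green triangles) medium, for the 33 named genes called in Treg medium (y). Most Th0 and Th1 points lie nearer to 0 than the Treg points, and Gbp3 and Gbp5 lie below 0 in Th0 medium, at -0.42 each; the genes were chosen by their Treg values.

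The KI cells in Treg medium were the remaining set with the same culture. Against WT, KI had 0 genes called by edgeR (1758, or 8.04%, at an unadjusted p below 0.05, and 12 by DESeq2). The 23 genes higher in KO had log2 fold changes of -0.12 to 1.25 in KI against WT, with a median of 0.44 and 13 at an unadjusted p below 0.05. The 14 genes lower in KO had log2 fold changes of -3.12 to -0.02 in KI against WT, with a median of -0.49 and 8 at that p. Both comparisons share the WT libraries, so this is no independent support. In KI against WT, 40 of 41 antiviral genes lay above 0, with a median of 0.35, and 19 of 21 MHC class I genes, with a median of 0.31. All 14 B cell and MHC class II markers were also above 0 in KI, with a median of 1.58, and their part in these values was not tested. Against KI, KO had 5 genes called, 0.0229% of those tested, with 4 higher (0.0183%) and 1 lower (0.00457%). Of these, 4 were also called against WT, and both comparisons share the KO libraries. Myb had 94.5, 79, 84.2, 88.4 and 87.3 CPM in KI, all below the lowest KO library, at 136.04 CPM (KO minus KI 1.22 ± 0.24, adjusted p = 0.0343). Aqp11 averaged 2.22 ± 0.992 CPM in KO and 0.538 ± 0.174 CPM in KI, and Ppm1l averaged 25.1 ± 6.22 CPM in KO and 12.6 ± 1.5 CPM in KI. Nol4l had 3.67 ± 0.714 CPM in KO and 9.66 ± 2.39 CPM in KI (-1.40 ± 0.27, adjusted p = 0.0343). Gbp5 averaged 304 ± 90.6 CPM in KO and 155 ± 48 CPM in KI (0.98 ± 0.30, adjusted p = 0.357), and Pdk1 averaged 279 ± 49.7 CPM in KO and 229 ± 27.9 CPM in KI (0.28 ± 0.15, adjusted p = 0.66), so KI lay between KO and WT for both.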

How the data were processed

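Polyadenylated RNA was sequenced, 2x150 bp, from stranded libraries per the labels' protocols. The authors deposited whole-number counts per gene for 55416 genes, 1 column per library and lane; per the file headers, reads were trimmed and aligned with STAR. No source used here gives the counting tool, annotation or strand setting. GRCh38 is named in the submitters' processing notes, while the gene IDs are those of mouse; 52083 matched GENCODE M21 (GRCm38), used for coordinates. Both lanes of a library were added up. edgeR 4.0.16 (R 4.3.3) fitted 1 model of 9 group means to 44 libraries, with TMM factors, its filter on low counts and the quasi-likelihood test; adjusted p is by the Benjamini-Hochberg method over 21873 genes, called below 0.05. Log2 fold changes are KO minus WT ± SE. The SE was derived as the absolute log2 fold change over the square root of the quasi-likelihood F statistic. It thus rests on that model of 44 libraries and not on the Treg libraries alone. CPM use TMM factors. Levels are compared between libraries of a gene, not between genes, since CPM are not per length. The script was tested on simulated data. Alternatives with DESeq2 1.42.0, limma 3.58.1, other filters, blocks and libraries left out stand in the closing section. Genes and the 42 lists were chosen with earlier results of these data known. Named are lineage genes fixed by name, every called gene that is not a predicted one, and up to 4 members of a list by smallest p, save some not reported here; values in every library are given for called, non-overlapping genes averaging 2 or more in log2 CPM, and for others chosen after their values were seen. Counts limit precision at the low end: a library's floor of 3 counts is 0.0283 to 0.0469 CPM, for counting error only. RefSeq windows gave the promoters; the mature miR-150-5p sequence was not used here.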

Additional observations from a re-analysis of the deposited data

Results flagged for a closer look

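In groups of 5 libraries, a library was singled out where its gap to the nearest other library exceeded 0.71 of the group's range, which chance does in about 1 group in 20. Over 152 groups of 5 (the genes named here, KO and WT apart) 15 were singled out, or 9.87%, and 8 of them were KO 2. In KO 2, Cd8a had 73.1 CPM, Ifng 157 CPM, Tbx21 47.3 CPM, Gata3 67.4 CPM and Rora 40.1 CPM, each above the other 4 KO libraries, while Foxp3 had 77.4 CPM, Kbtbd11 229 CPM and Parp9 155 CPM, each below them. In KO 4, Gpi1 had 623 CPM, Mpc2 11.6 CPM and Pkm 1497 CPM, each below the other KO libraries. In WT 4, Cd8a had 443 CPM and Ifng 846 CPM, against at most 23.9 and 78.7 CPM in the other WT libraries. Dclk2 had 42.3 CPM in WT 3, against 8.75 to 18.3 CPM in the other WT libraries, and Lhx6 had 21.8 CPM in WT 5, against 0.631 to 5.35 CPM. The part of these libraries in the comparison was not tested beyond the fits that left them out.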

How the results depend on the processing

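The 33 named called genes kept their direction under each of the 25 alternatives they could be tested in; Slc4a4 was removed by the filter of 1 CPM and so had 24. The count of 37 became 34 with DESeq2 size factors, 28 with no filter, 37 with robust dispersion, 39 with the deeper lane alone and 39 with the Ddx3y level as a term, an alternative chosen after seeing the data. It became 60 (29 higher, 31 lower) with a filter of 1 CPM in 5 libraries, 161 (65 and 96) with DESeq2, 462 (285 and 177) with limma voom and sample weights, 75 higher and 51 lower with the Cd8a level as a term, 226 (79 and 147) when WT 4, KO 2 and KI 3 were left out of all media, 110 (40 and 70) without Treg WT 4 and KO 2, and 0 with only the 10 or only the 15 Treg libraries. Leaving out 1 library gave 2 to 195 (higher 1 to 100, lower 1 to 95). Same-numbered Treg KO and WT libraries deviated from their means with correlations of -0.342 to 0.079, so the numbers do not pair them; the replicate block gave 51 calls over 44 libraries and 0 over 10. Within a genotype, same-numbered libraries of Treg and other media correlated at 0.083 to 0.335. The difference between Treg and Th0 media, 0 genes, became 20 with DESeq2, 9 with those libraries left out, 2 with the block of genotype by number and 0 to 13 without single libraries; that between Treg and Th1 media, 0 genes, became 33, 6, 0 and 0 to 22. Reversals were seen only in genes not called. Without single libraries, Foxp3 ranged from -0.418 to 0.121, Cd8a from -3.089 to 0.907, Cd4 from -0.044 to 0.221, Ifng from -5.222 to 0.773, Tbx21 from -1.199 to 0.614 and Il2ra from -0.122 to 0.061. With the block over 10 libraries Foxp3 was 0.121, Ifng 0.973, Tbx21 1.332 and Il2ra -0.033; over 44 libraries Tbx21 was 0.139 and Il2ra -0.009. With limma voom Ifng was 1.321, Tbx21 1.617 and Il2ra -0.034. With the Cd8a term Cd8a was 0.001 and Tbx21 0.294. Gata3 was -0.014 with WT 4, KO 2 and KI 3 left out and -0.016 without Treg WT 4 and KO 2, where Il2ra was -0.057 and -0.058. Il2ra was also -0.023 with DESeq2 size factors and with the 1 CPM filter, -0.003 with no filter, -0.020 with DESeq2 and with 10 libraries, -0.004 with 15, -0.007 with the Ddx3y term and -0.002 with the deeper lane. The cause of these moves was not tested. Fits with fewer libraries differ both in degrees of freedom and in the spread they estimate, and the parts of these were not told apart.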

Other observations

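By position, 8 of the 14 genes lower in KO lie on chromosome 2 (57.1%), which holds 7.22% of all genes tested and 7.97% of the genes lower in KO at an unadjusted p below 0.05. They are Slc20a1 and its antisense neighbour 9830144P21Rik, Rcn1, Acvr2a, Nol4l, Ak1, Src and Lhx6. Of the 23 genes higher in KO, 5 lie on chromosome 3 (21.7%, against 5.05% of genes tested), namely Gbp3, Gbp5, Gbp7, Dclk2 and Ppm1l. Another 3 lie on chromosome 17 (13%, against 4.99% of genes tested), namely Tap1, H2-Q4 and Pgp. This was noticed after the values were seen and was not tested.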
